A study of Homo sapiens with 12 samples.

Results

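The 9 genes described here encode secreted protease inhibitors, the serpin maspin, a carboxypeptidase and the plasminogen activators with the urokinase receptor. They are TFPI2, CPA4, TIMP1, TIMP2, TIMP3, SERPINB5, PLAU, PLAUR and PLAT. They were taken by gene symbol, and all 9 were found among the 59324 genes of the table. TFPI2, CPA4 and TIMP2 had been picked because they changed strongly in these libraries, so their values are a description without a test. The other 6 were included for their protein family, with earlier results of these data known.

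RNA was sequenced from MDA-MB-468, an established line from a human breast carcinoma that lacks hormone receptors and HER2 amplification and carries extra EGFR copies, in 4 groups of 3 libraries. The groups were cells given both drugs (SAHA at 10 µM for 12 h, with a sonidegib pretreatment at 10 µM for 72 h), cells given SAHA alone (10 µM, 12 h), cells given sonidegib alone (10 µM, 72 h) and control cells. SAHA (vorinostat) inhibits histone deacetylases, and sonidegib inhibits Smoothened, the membrane protein that relays Hedgehog signals. Neither the vehicle nor the culture time of the controls is stated in the labels. They also do not say if a group's libraries are separate cultures, so its replicate spread, on which every p-value rests, may be technical.

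Urokinase, the product of PLAU, binds its receptor PLAUR at the cell surface and cuts plasminogen into plasmin, a protease that dissolves fibrin and activates other matrix proteases. Tissue plasminogen activator, the product of PLAT, does the same mainly on fibrin, and inhibitors of the serpin family restrain both. The TIMP proteins inhibit matrix metalloproteases (MMPs), and TFPI2 is a Kunitz-type inhibitor of plasmin and related serine proteases that is laid down in the matrix.

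The promoters of the 4 members in the RefSeq promoter table whose level was higher with SAHA are shown because the members that move with SAHA can be set beside the sequence before their start. Each runs 5′ to 3′ along the gene from 250 bases before to 50 bases after the RefSeq start (GRCh38.p14), and capitals mark TGANTCA, a relaxed form of the AP-1 site.
CPA4, chr7:130292911-130293210, plus strand: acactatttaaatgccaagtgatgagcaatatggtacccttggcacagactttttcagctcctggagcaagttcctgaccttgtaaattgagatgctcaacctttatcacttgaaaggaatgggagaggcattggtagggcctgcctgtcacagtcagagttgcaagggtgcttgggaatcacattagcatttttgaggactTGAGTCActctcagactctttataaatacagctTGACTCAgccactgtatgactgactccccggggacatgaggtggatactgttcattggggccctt
TFPI2, chr7:93890704-93891003, minus strand: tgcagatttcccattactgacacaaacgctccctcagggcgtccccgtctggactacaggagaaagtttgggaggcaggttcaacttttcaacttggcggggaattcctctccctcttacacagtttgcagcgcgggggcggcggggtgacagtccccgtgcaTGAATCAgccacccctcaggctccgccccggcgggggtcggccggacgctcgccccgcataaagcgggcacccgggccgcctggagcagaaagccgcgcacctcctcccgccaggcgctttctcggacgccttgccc
SERPINB5, chr18:63476708-63477007, plus strand: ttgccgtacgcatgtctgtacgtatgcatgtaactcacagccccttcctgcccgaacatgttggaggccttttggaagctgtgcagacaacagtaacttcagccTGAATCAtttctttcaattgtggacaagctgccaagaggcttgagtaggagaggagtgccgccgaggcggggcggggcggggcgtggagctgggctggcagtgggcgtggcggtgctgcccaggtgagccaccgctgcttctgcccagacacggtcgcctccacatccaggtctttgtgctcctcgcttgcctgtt
PLAUR, chr19:43670120-43670419, minus strand: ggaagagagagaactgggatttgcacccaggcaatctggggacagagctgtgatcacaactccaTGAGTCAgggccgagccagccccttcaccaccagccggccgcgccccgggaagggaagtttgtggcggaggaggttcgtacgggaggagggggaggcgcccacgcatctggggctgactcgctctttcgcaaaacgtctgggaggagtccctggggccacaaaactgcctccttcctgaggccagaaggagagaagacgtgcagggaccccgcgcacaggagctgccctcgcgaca

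Read on both strands, TGANTCA lay at -48 and -15 from the start in the CPA4 promoter, at -87 in that of TFPI2, at -146 in that of SERPINB5 and at -186 in that of PLAUR, counted to its first base. It was present in 7.71% of the 35116 promoter windows of the table and occurred at least 2 times in 0.515%. CPA4 and PLAUR held the usual AP-1 letters, TGAGTCA on either strand, which 4.95% of all windows held, whereas TFPI2 and SERPINB5 held the variant TGAATCA. The windows of TIMP1, TIMP3 and both starts of PLAU did not contain TGANTCA. TIMP2, which had no entry in the promoter table, and PLAT were not searched. The CPA4 window also differed in base composition, with 1 CpG dinucleotide against a median of 14 over all windows, and it held TATAAA at -28, a sequence found on either strand in 11.5% of windows. TIMP3 had the most CpG of the members searched, at 31, and 79.3% of all windows held fewer. Its window had 5 copies of the GC box GGGCGG over both strands, which 45.0% of windows held at least once and 15.8% at least 3 times. The windows of TFPI2, SERPINB5, TIMP1 and 1 start of PLAU also held the GC box. These letter matches are descriptions of the windows and not evidence of binding. The motifs were chosen after values and sequences had been seen, so a link between them and the change with SAHA was not tested.

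Across the 12 libraries between 20125 and 21402 genes were above 0 TPM and between 13204 and 13874 reached 1 TPM. The 6 epithelial markers were all above 1 TPM, with summed levels of 4301 to 4418 TPM with both drugs, 9046 to 9545 TPM with SAHA, 4262 to 4675 TPM with sonidegib and 7639 to 8519 TPM in control. Of the markers of other cell types, COL1A1 of 6 fibroblast genes, KDR of 5 endothelial genes and CD14 of 6 leukocyte genes reached a mean of 1 TPM, and the fibroblast marker LUM was listed at 0 in all 12 libraries. Summed fibroblast markers were 9.61 to 10.2, 10.4 to 13.1, 4.60 to 7.10 and 3.22 to 4.50 TPM in the combination, SAHA, sonidegib and control groups. Summed endothelial markers, in the same order of groups, were 4.04 to 4.58, 5.04 to 5.89, 2.36 to 3.25 and 4.06 to 5.06 TPM, and summed leukocyte markers were 207 to 222, 300 to 336, 301 to 311 and 297 to 322 TPM. The part of these differences in the results below was not tested. The annotated 5S ribosomal RNA genes summed to 1488 to 12641 TPM in the 6 libraries with sonidegib and were listed at 0 in the 6 without it, so a difference in preparation or processing and the drug cannot be told apart in comparisons across these sets of libraries. Mitochondrial ribosomal RNA was 2.41% to 2.86% of TPM with both drugs, 1.18% to 1.35% with SAHA, 2.06% to 2.48% with sonidegib and 0.565% to 0.670% in control.

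TIMP1 was the most abundant of the 9 genes in every group and PLAT the least, on the TPM scale, which corrects for transcript length. In control cells the order of mean levels was TIMP1, PLAUR, TIMP3, TFPI2, TIMP2, CPA4, SERPINB5, PLAU and PLAT. With SAHA alone CPA4 stood second, ahead of PLAUR and TIMP2, whereas in both groups given sonidegib CPA4 and TFPI2 were seventh and eighth. Neighbours in this order overlapped in control between TFPI2 and TIMP2 and between TIMP2 and CPA4, and no neighbours overlapped with SAHA alone. With sonidegib alone PLAU and SERPINB5 overlapped, as did CPA4 and TFPI2. With both drugs the range of PLAU reached over those of SERPINB5, TIMP3 and CPA4, and CPA4 overlapped TFPI2.

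**Figure D1:**
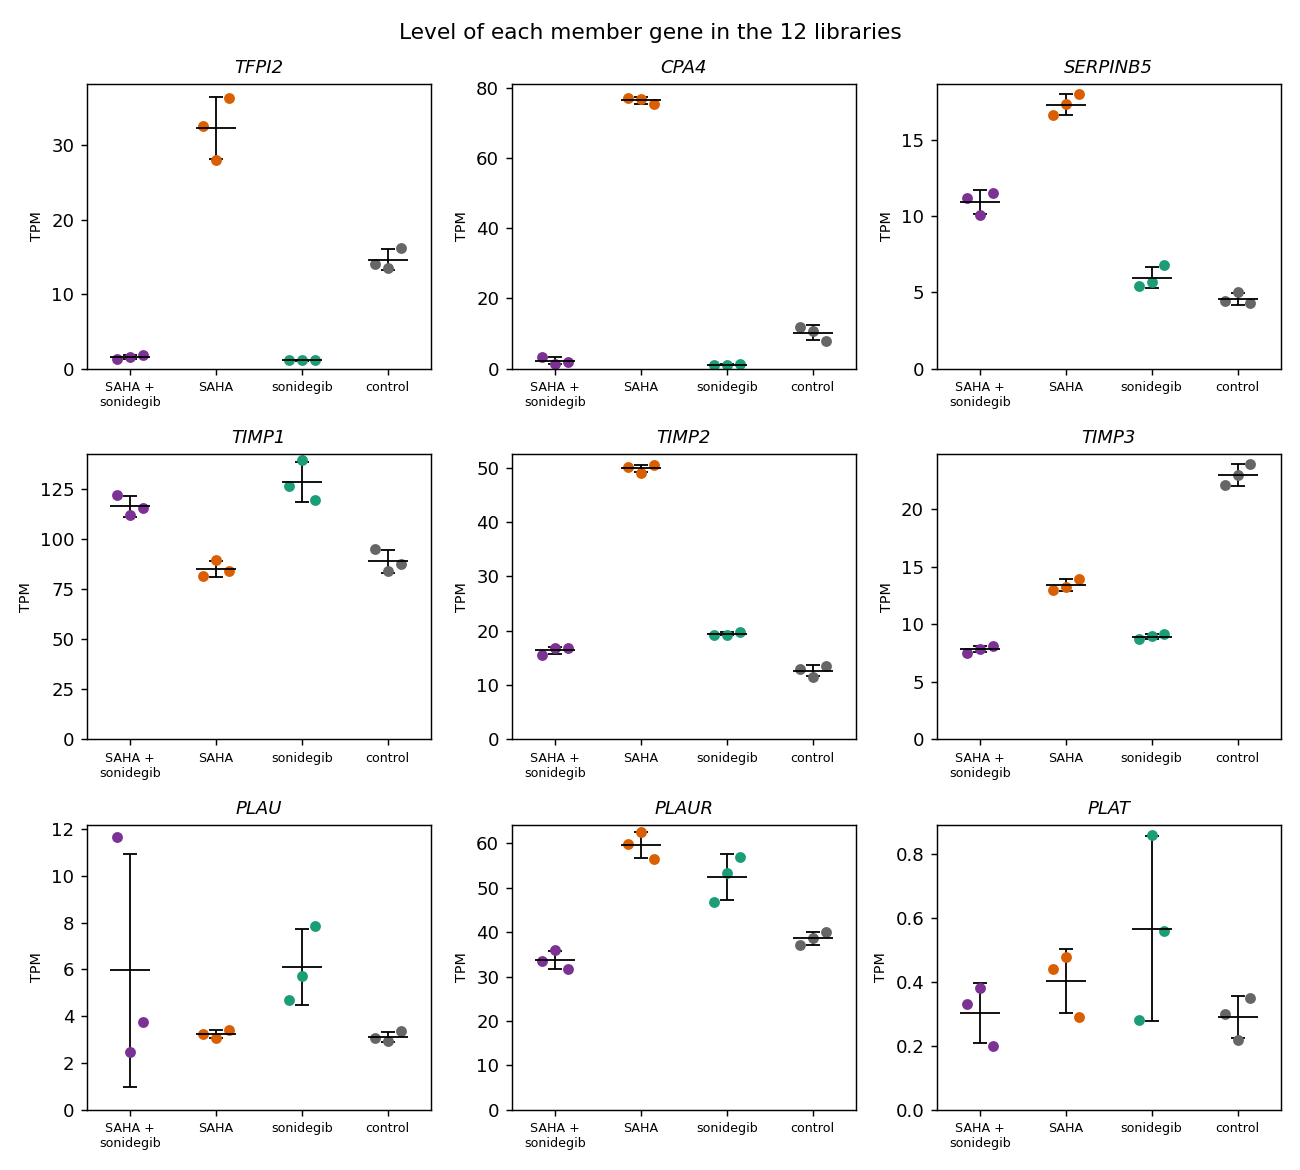
Level of each of the 9 genes in TPM (vertical axis, from 0, with its own scale in each panel) in the 4 groups; points are libraries, horizontal bars are means and error bars are SD (n = 3). CPA4 was at 75.2 to 76.9 TPM with SAHA alone and at most 3.45 TPM in both groups given sonidegib, and PLAU had 1 combination library at 11.7 TPM beside others at 2.47 and 3.76 TPM.

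Among the inhibitors of serine proteases, TFPI2 (ENSG00000105825, chromosome 7, 93885396 to 93890991, GRCh38) was near 1 TPM in cells given sonidegib. It had 1.26, 1.54 and 1.80 TPM with both drugs, 32.5, 28.0 and 36.3 TPM with SAHA, 1.18, 1.12 and 1.12 TPM with sonidegib and 14.0, 13.5 and 16.2 TPM in control. No 2 groups overlapped. The mean with SAHA was 2.21-fold that of control, and the mean with sonidegib was 12.8-fold lower than control. With both drugs TFPI2 was 21.1-fold lower than with SAHA alone and 1.35-fold higher than with sonidegib alone. On the scale of log2(TPM + 1), which understates changes near 1 TPM, its difference of combination minus SAHA was -3.71 ± 0.12 (SE), which had rank 6 among the falls of the 13937 genes tested. TFPI2 overlaps GNGT1 on the opposite strand, and GNGT1 was at no more than 0.09 TPM in any library.

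SERPINB5 (ENSG00000206075, chromosome 18, 63476761 to 63505085) encodes maspin, a serpin of mammary epithelium that was described as a tumour suppressor and does not act as a classical protease inhibitor. It had 11.2, 10.1 and 11.6 TPM with both drugs, 16.6, 17.4 and 18.0 TPM with SAHA, 5.44, 5.71 and 6.77 TPM with sonidegib and 4.41, 5.02 and 4.28 TPM in control. All 4 groups were separate, in the order SAHA, combination, sonidegib, control. SERPINB5 rose with SAHA (log2 change 1.72 ± 0.094, adjusted p = 4.33e-08) and also with SAHA in sonidegib-treated cells (0.78 ± 0.094, adjusted p = 7.5e-05). The rise with sonidegib alone was small (0.32 ± 0.094, adjusted p = 0.0127), and its call was lost when only these groups were fitted (adjusted p = 0.0538) or without sonidegib replicate 3 (0.24 ± 0.094, adjusted p = 0.0546). The rise with SAHA was smaller after sonidegib than without it, by 0.94 on the log2 scale (-0.94 ± 0.13, adjusted p = 0.000324).

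CPA4 (ENSG00000128510, chromosome 7, 130293134 to 130324180) encodes a secreted metallocarboxypeptidase that was first isolated as a gene induced by histone deacetylase inhibitors in prostate cancer cells. It had 3.45, 1.48 and 2.03 TPM with both drugs, 76.9, 76.9 and 75.2 TPM with SAHA, 1.07, 1.02 and 1.41 TPM with sonidegib and 12.0, 10.8 and 7.82 TPM in control. The 3 SAHA libraries stood far above all others, and every library with sonidegib lay under every library without it. The SAHA mean was 7.49-fold that of control, the sonidegib mean 8.73-fold lower than control and the combination mean 32.9-fold lower than the SAHA mean. The last of these was a log2 difference of -4.59 ± 0.20, with rank 2 among the falls of all tested genes. With sonidegib already given, SAHA left CPA4 at 1.99-fold the sonidegib level, from libraries at 1.48 TPM or more against 1.41 TPM or less. The relatives CPA1, CPA3 and CPA6 were listed at 0 in all libraries, and CPA5 did not exceed 0.77 TPM.

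The 3 TIMP genes each had a pattern of their own. TIMP2 (ENSG00000035862, chromosome 17, 78852977 to 78925387), whose product inhibits MMPs and also assists the membrane protease MMP14 in activating MMP2, had 15.6, 16.8 and 16.8 TPM with both drugs, 50.1, 49.1 and 50.5 TPM with SAHA, 19.2, 19.3 and 19.8 TPM with sonidegib and 12.9, 11.6 and 13.6 TPM in control. SAHA alone was thus the single high group, at 3.94-fold control. In cells given sonidegib the direction with SAHA was the opposite, since all 3 combination libraries lay below all 3 sonidegib libraries, with a mean 1.19-fold lower. The log2 difference with SAHA was -0.23 ± 0.065 after sonidegib and 1.90 ± 0.065 without it. An antisense transcript within TIMP2, AC022966.1, was listed at 2.32 to 5.33 TPM with both drugs, 0 to 15.2 TPM with SAHA, 0.19 to 5.0 TPM with sonidegib and 0 to 5.95 TPM in control, so with an unstated strand setting its reads cannot be told apart from those of TIMP2.

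TIMP3 (ENSG00000100234, chromosome 22, 32801701 to 32863043), whose product stays bound to the matrix and also inhibits ADAM proteases such as ADAM17, was lower in all treated groups. It had 7.53, 7.83 and 8.09 TPM with both drugs, 13, 13.2 and 13.9 TPM with SAHA, 8.69, 8.97 and 9.10 TPM with sonidegib and 22.1, 22.9 and 23.9 TPM in control. No groups overlapped. Against control the log2 change was -1.44 ± 0.064 for both drugs (adjusted p = 6.97e-09), -0.74 ± 0.064 for SAHA (adjusted p = 1.77e-06) and -1.27 ± 0.064 for sonidegib (adjusted p = 4.52e-08), all falls. The further difference of the combination from sonidegib alone did not pass the test (-0.17 ± 0.064, adjusted p = 0.0561), though it did at 4 other settings (adjusted p = 0.0327 to 0.0499). The fall with SAHA was smaller after sonidegib than without it (difference 0.57 ± 0.091, adjusted p = 0.000749).

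TIMP1 (ENSG00000102265, chromosome X, 47582313 to 47586789), a soluble inhibitor and the most abundant of the members, had 122, 112 and 115 TPM with both drugs, 81.5, 89.5 and 84.4 TPM with SAHA, 127, 140 and 120 TPM with sonidegib and 95.1, 83.9 and 87.7 TPM in control. The 6 libraries with sonidegib were all above the 6 without it. TIMP1 rose with sonidegib (0.53 ± 0.069, adjusted p = 6.08e-05) and, on top of SAHA, with the combination (0.45 ± 0.069, adjusted p = 0.000241). SAHA against control did not pass the test (-0.06 ± 0.069, adjusted p = 0.478), nor did the combination against sonidegib (-0.14 ± 0.069, adjusted p = 0.135). TIMP1 and TIMP3 lie inside the synapsin genes SYN1 and SYN3 on the opposite strand, which did not exceed 1.72 and 1.25 TPM.

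The summed level of the 3 TIMP genes moved less than their make-up. The sum was 141 ± 4.28 TPM with both drugs, 148 ± 3.60 TPM with SAHA, 157 ± 9.98 TPM with sonidegib and 125 ± 5.83 TPM in control (SD, n = 3). All treated libraries were above all control libraries in this sum. TIMP2 made up 11.7% ± 0.806, 33.6% ± 1.17 and 12.4% ± 0.911 of the sum in the combination, SAHA and sonidegib groups, against 10.2% ± 0.579 in control. TIMP3 made up 5.56% ± 0.324, 9.02% ± 0.335 and 5.70% ± 0.401 in the same treated groups, against 18.5% ± 1.32 in control. No test was run on these sums and shares, which are given as a description.

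Set against the proteases they inhibit, the 23 MMP genes summed to 289 ± 13.5 TPM with both drugs, 120 ± 2.89 TPM with SAHA, 280 ± 8.50 TPM with sonidegib and 218 ± 43.0 TPM in control. MMP7 (matrilysin) was most of this sum except with SAHA alone. It was at 223 ± 11.8 TPM with both drugs, 17.9 ± 1.87 TPM with SAHA, 213 ± 8.45 TPM with sonidegib and 174 ± 40.3 TPM in control. Without MMP7 the SAHA group was the highest, at 102 ± 3.05 TPM against 44.1 ± 2.90 TPM in control. The ratio of summed TIMP to summed MMP transcripts was 0.49 ± 0.021 with both drugs, 1.24 ± 0.012 with SAHA, 0.56 ± 0.053 with sonidegib and 0.59 ± 0.15 in control. The SAHA libraries stood above all others in this ratio, but only because it counts MMP7. Without MMP7 the MMP sum was 65.4 ± 1.70 TPM with both drugs and 67.1 ± 0.960 TPM with sonidegib, both below SAHA. With MMP7 left out, the SAHA group would therefore have the lowest ratio of the mean sums among the groups.

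**Figure D2:**
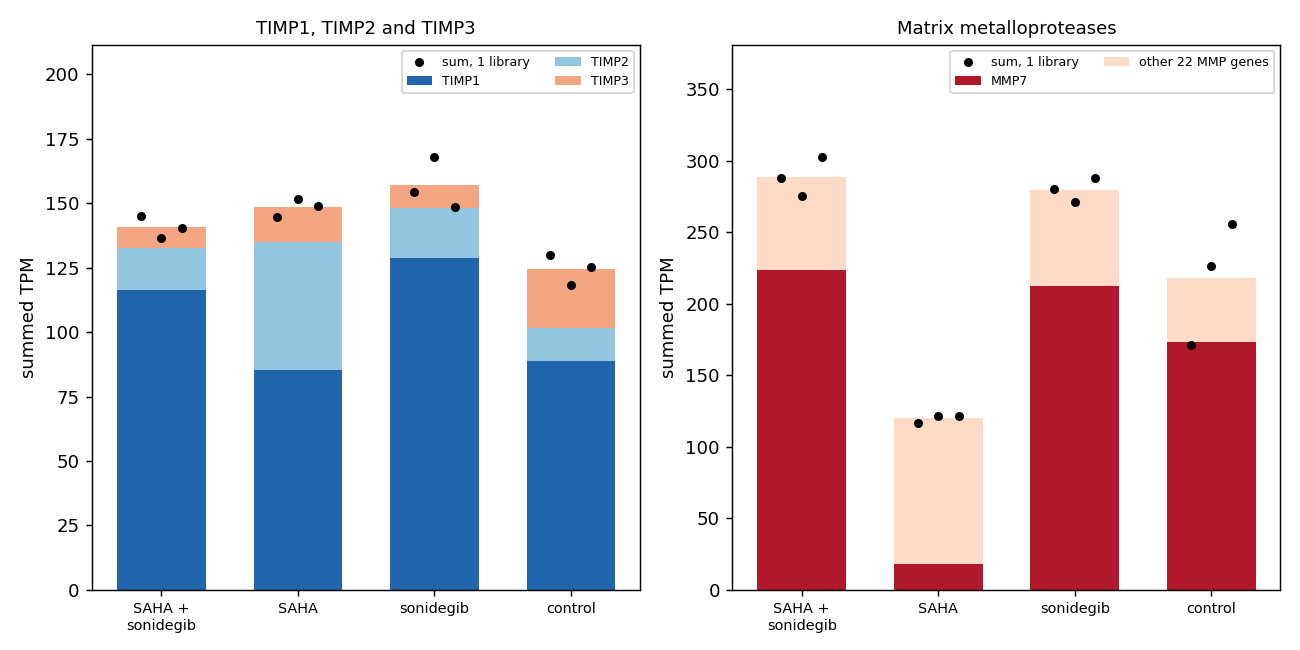
Summed TPM (vertical axes, from 0) of TIMP1, TIMP2 and TIMP3 (left) and of the 23 MMP genes, split into MMP7 and the rest (right), in the 4 groups; bars are group means and points the sum in each library. The TIMP2 segment was widest with SAHA alone, and the MMP7 segment was 17.9 TPM with SAHA alone against 174 TPM in control.

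Among the genes of plasminogen activation the receptor was far more abundant than its ligand. PLAUR (ENSG00000011422, chromosome 19, 43646095 to 43670547) had 33.6, 36.0 and 31.8 TPM with both drugs, 59.8, 62.6 and 56.6 TPM with SAHA, 46.8, 53.3 and 57.0 TPM with sonidegib and 37.2, 38.6 and 40.1 TPM in control. Each drug alone lay above control, and the combination lay below control. PLAUR rose with SAHA (0.61 ± 0.077, adjusted p = 3.36e-05) and with sonidegib (0.43 ± 0.077, adjusted p = 0.00067), while it was lower with both drugs than with sonidegib alone (-0.61 ± 0.077, adjusted p = 0.000102). The response to SAHA thus turned round between the 2 settings, a difference of -1.23 ± 0.11 (adjusted p = 1.38e-05). The combination against control did not pass the test (-0.19 ± 0.077, adjusted p = 0.051), but it did in 6 other fits, at adjusted p = 0.0269 to 0.0467.

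PLAU (ENSG00000122861, chromosome 10, 73909177 to 73917497) had 11.7, 2.47 and 3.76 TPM with both drugs, 3.23, 3.07 and 3.41 TPM with SAHA, 4.71, 5.73 and 7.86 TPM with sonidegib and 3.06, 2.95 and 3.36 TPM in control. The combination libraries disagreed by more than any other trio, and the sonidegib libraries all lay above SAHA and control. The adjusted p of PLAU in the limma fit lay between 0.0974 and 0.941 over the 6 comparisons, with the lowest for sonidegib against control (0.76 ± 0.36). This result turned on the spread of the combination group, which all groups share in the fit: when only sonidegib and control were fitted, the same difference passed (0.76 ± 0.17, adjusted p = 0.0108), and likewise without combination replicate 1 (adjusted p = 0.00335) or replicate 2 (adjusted p = 0.0499). Without replicate 1 the combination was also lower than sonidegib (-0.78 ± 0.19, adjusted p = 0.00937), and the SAHA effect differed after sonidegib (-0.82 ± 0.25, adjusted p = 0.0353). Without replicate 2 the combination against control passed as a rise (0.91 ± 0.33, adjusted p = 0.0351). The overlapping opposite-strand gene C10orf55 was at no more than 0.49 TPM.

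PLAT (ENSG00000104368) was close to undetected, with 0.33, 0.38 and 0.20 TPM with both drugs, 0.44, 0.48 and 0.29 TPM with SAHA, 0.28, 0.86 and 0.56 TPM with sonidegib and 0.30, 0.22 and 0.35 TPM in control. It lay below the expression filter, and the groups overlapped. Fitted without the filter, its changes against control were 0.01 ± 0.12 with both drugs (adjusted p = 1), 0.12 ± 0.12 for SAHA alone (adjusted p = 0.556) and 0.27 ± 0.12 for sonidegib alone (adjusted p = 0.165). Plasminogen itself was also scarce, since PLG did not exceed 0.08 TPM, and SERPINB2, a serpin that inhibits urokinase, did not exceed 0.06 TPM. The ratio of PLAUR to PLAU transcripts was 8.63 ± 5.84 with both drugs, 18.5 ± 1.90 with SAHA, 8.82 ± 1.40 with sonidegib and 12.4 ± 0.617 in control (SD, n = 3), so the receptor exceeded its ligand in all groups.

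Of the 6 members not picked for their change, 5 passed the filter, all but PLAT. With SAHA against control 2 of these 5 rose (SERPINB5 and PLAUR) and TIMP3 fell, where 31.8% of all tested genes were called higher and 26.9% lower, 58.7% in all. With sonidegib against control 3 rose (TIMP1, SERPINB5 and PLAUR) and TIMP3 fell, where 26.1% of tested genes were called higher and 29.2% lower, 55.3% in all. The combination against control gave 2 rises (TIMP1, and SERPINB5 at 1.10 ± 0.094) and the fall of TIMP3, beside 29.7% of genes called higher and 34.0% lower, 63.7% in all. Without combination replicate 2 this count was 5 rather than 3. The combination against SAHA gave the rise of TIMP1 and falls of TIMP3 (-0.71 ± 0.064), SERPINB5 (-0.62 ± 0.094) and PLAUR (-0.80 ± 0.077), beside 18.0% called higher and 33.0% lower, 50.9% in all. Over all genes that comparison had 2506 higher and 4594 lower calls, which became 3502 and 3735 under median-of-ratios scaling and 3708 and 3686 under quantile normalization. The combination against sonidegib gave 2 calls, the rise of SERPINB5 and the fall of PLAUR, beside 17.5% called higher and 21.0% lower, 38.5% in all. The SAHA effect differed with sonidegib for 3 (TIMP3, SERPINB5 and PLAUR), beside 11.8% called higher and 19.7% lower, 31.4% in all. Over all genes that difference had 1642 higher and 2739 lower calls, which became 2392 and 2395 under median-of-ratios scaling and 2373 and 2345 under quantile normalization. With 5 genes tested, in a table where most expressed genes changed between treated and control cells, these counts do not set the members apart.

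For the 5 members that were higher with SAHA, the change with SAHA was smaller or opposite after sonidegib. Choosing genes by a high change with SAHA alone favours such a difference, so the set is described without a test. The log2 change with SAHA after sonidegib and without it was 0.58 and 2.81 for CPA4, -0.23 and 1.90 for TIMP2, 0.78 and 1.72 for SERPINB5, 0.24 and 1.09 for TFPI2, and -0.61 and 0.61 for PLAUR. The values after sonidegib of CPA4 and TFPI2 rest on levels near 1 TPM and were 0.865 and 0.384 with a pseudocount of 0.1. CPA4 and TFPI2 were below control with sonidegib alone, whereas TIMP2, SERPINB5 and PLAUR were above it. TFPI2, CPA4 and TIMP2 were picked on these libraries and cannot add support to this pattern.

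**Figure D3:**
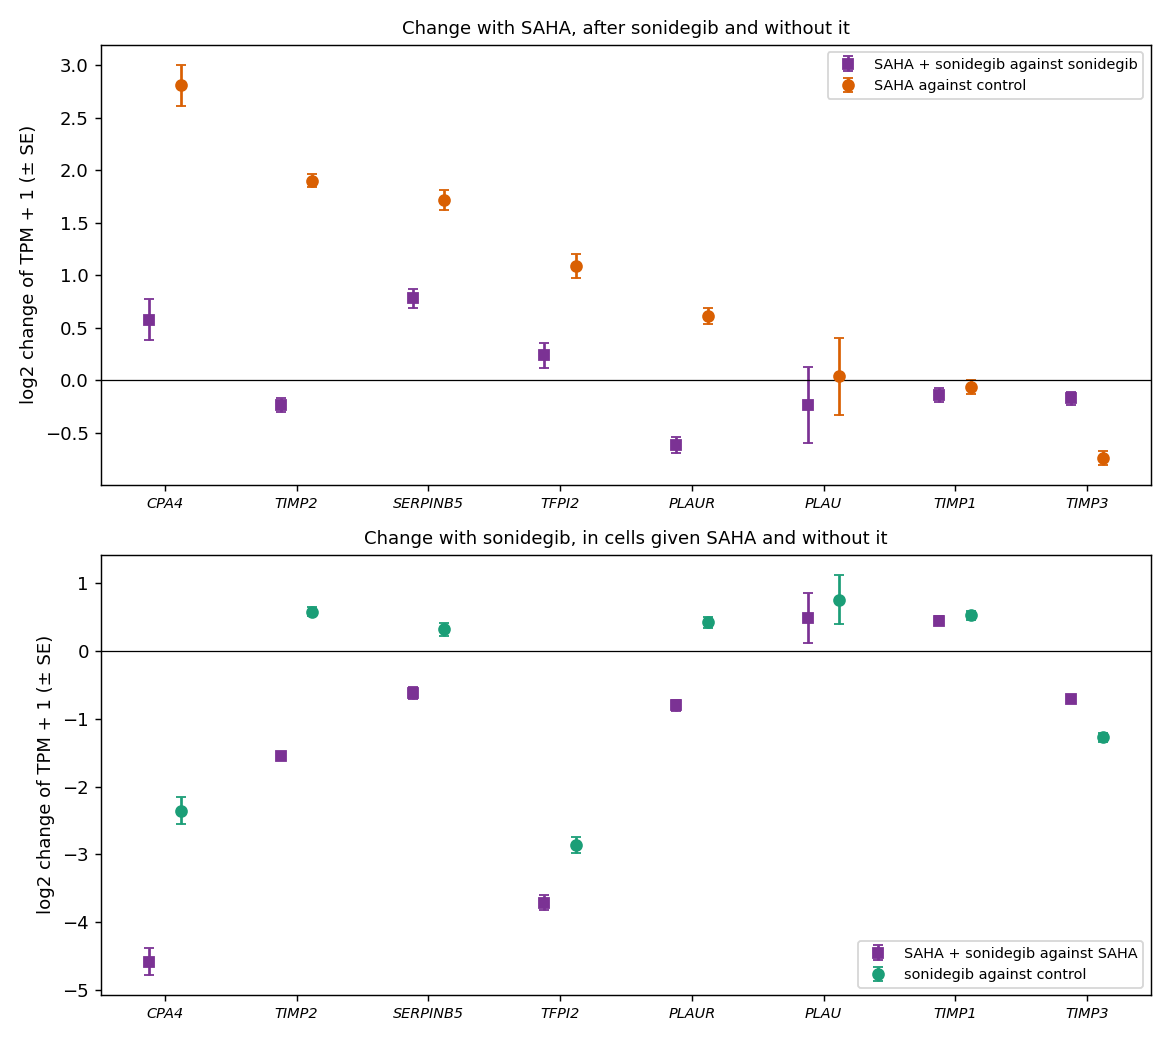
Log2 change of TPM + 1 with its SE (vertical axes) for the 8 members that passed the expression filter; the upper panel gives the change with SAHA after sonidegib (squares) and without it (circles), and the lower panel the change with sonidegib in cells given SAHA (squares) and without it (circles). For CPA4, TIMP2, SERPINB5, TFPI2 and PLAUR the square of the upper panel lies below the circle, and for TIMP3 above it (-0.17 against -0.74).

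Genes with the most similar profiles were found by the root mean square difference of centred log2(TPM + 1) over the 12 libraries, among the 9077 other protein-coding genes that averaged 5 TPM or more (9078 for PLAU). For TFPI2 these were ODC1 (0.479), SRRM5 (0.479) and IGFBP5 (0.506), where the profile of TFPI2 itself varied by 1.69 about its mean. The nearest gene to CPA4 was TFPI2 (0.692), followed by ACTBL2 (0.709), which can share reads with other actin genes, and the keratin KRT17 (0.828), with a spread of 2.02 for CPA4 itself. Both CPA4 and TFPI2 were picked for large changes in these libraries, so their likeness is a description and adds no support. ACTBL2 had 0.76, 23.4 and 0.0567 TPM in the combination, SAHA and sonidegib groups and 0.87 TPM in control. It thus reached the 5 TPM average only through the SAHA group. DUSP5 (0.135), TYMP (0.157) and HSPA1B (0.196) were nearest to TIMP2 (spread 0.721), HNRNPDL (0.0673) to TIMP3, SMAP2 (0.115) to SERPINB5, CLDN4 (0.0982) to PLAUR and EEF2 (0.0626) to TIMP1. DUSP5 had 16.6, 45.8 and 18.2 TPM in the combination, SAHA and sonidegib groups and 10.7 TPM in control, close to TIMP2 also in level. For PLAU the nearest gene, PAWR, was at 0.327 beside a spread of 0.53, so no gene followed it closely.

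The wider protease network was described with 10 lists of related genes, which leave out the members. Of the 193 symbols in the lists 71 passed the filter. Of these 71, 38 were higher and 18 lower with both drugs, 36 higher and 16 lower with SAHA, and 38 higher and 11 lower with sonidegib, each against control. That is 78.9%, 73.2% and 69.0% called, where 63.7%, 58.7% and 55.3% of all tested genes were called in the same order (29.7% higher and 34.0% lower, 31.8% and 26.9%, and 26.1% and 29.2%). The lists had median changes of 0.37, 0.33 and 0.34, beside medians of -0.02, 0.05 and -0.02 over all tested genes. The counts of single lists below stand against these shares, and nothing particular to a list is drawn from them.

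Of 9 tested partners of the plasminogen system, 5 were higher and 4 lower with both drugs, 5 and 3 with SAHA, and 6 and 2 with sonidegib (medians 0.34, 0.32 and 0.44), where 63.7%, 58.7% and 55.3% of all tested genes were called. SERPINE2, a serpin that inhibits urokinase and thrombin, rose with SAHA (0.90 ± 0.14, adjusted p = 0.000183) and with sonidegib (0.89 ± 0.14, adjusted p = 0.000238), to 19.5 ± 2.73 and 19.3 ± 2.16 TPM against 9.95 TPM in control. In the tissue factor and thrombin list 3 of 7 rose and 1 fell with both drugs, 4 rose and 2 fell with SAHA, and 3 rose and 1 fell with sonidegib (medians 0.50, 0.81 and 0.36). F3, tissue factor, rose with SAHA (1.40 ± 0.17, adjusted p = 2.17e-05) and fell with sonidegib (-0.77 ± 0.17, adjusted p = 0.00218), and it was higher with both drugs than with sonidegib alone (1.09 ± 0.17, adjusted p = 0.000405). With both drugs it was at 7.67 TPM against 6.04 TPM in control, which did not pass the test (0.32 ± 0.17, adjusted p = 0.118). The difference between its SAHA changes did not pass the test (-0.32 ± 0.24, adjusted p = 0.339). TFPI, the tissue factor pathway inhibitor related to TFPI2, fell with SAHA (-1.54 ± 0.12, adjusted p = 9.11e-07), to 10.8 ± 1.53 TPM against 33.2 ± 1.94 TPM in control.

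Of 23 MMP genes only 5 passed the filter, of which 4 rose and 1 fell with both drugs, 3 rose and 1 fell with SAHA, and 3 rose with sonidegib (medians 0.47, 1.35 and 0.40), beside the 63.7%, 58.7% and 55.3% called over all tested genes. MMP2, the gelatinase that TIMP2 binds, rose with SAHA (1.72 ± 0.11, adjusted p = 1.74e-07), as did the membrane protease MMP15 (1.54 ± 0.060, adjusted p = 4.29e-09), while MMP7 fell (-3.18 ± 0.14, adjusted p = 9.18e-09). MMP14, the membrane protease that activates MMP2 together with TIMP2, rose with sonidegib (0.88 ± 0.10, adjusted p = 2.14e-05), and was lower with both drugs than with sonidegib alone (-1.18 ± 0.10, adjusted p = 6.81e-06). Of 6 tested ADAM and ADAMTS genes 2 rose and 1 fell with both drugs and with SAHA, and 1 rose and 1 fell with sonidegib (medians 0.09, 0.31 and 0.19). Of 4 other metalloprotease inhibitors 2 rose and 2 fell with both drugs, 1 rose and 1 fell with SAHA, and 2 rose and 1 fell with sonidegib (medians 0.18, -0.05 and 0.35). RECK, a membrane-anchored MMP inhibitor, rose with SAHA (1.39 ± 0.11, adjusted p = 7.27e-07) and with sonidegib (0.91 ± 0.11, adjusted p = 2.96e-05), and TIMP4, the remaining TIMP, did not exceed 1.3 TPM.

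Of 10 tested carboxypeptidases and latexins 9 rose and 1 fell with both drugs, 6 rose and 1 fell with SAHA, and 8 rose with sonidegib (medians 0.92, 0.79 and 0.69), beside 63.7%, 58.7% and 55.3% of all tested genes called. LXN, latexin, an inhibitor of A-type carboxypeptidases such as CPA4, rose with SAHA (1.02 ± 0.089, adjusted p = 1.8e-06) to 92.9 ± 9.56 TPM against 45.3 ± 3.23 TPM in control. RARRES1, a latexin relative, fell with SAHA (-2.07 ± 0.15, adjusted p = 3.59e-07). Other serpins gave 3 rises and 1 fall of 5 with both drugs, 1 and 1 with SAHA, and 4 and 1 with sonidegib (medians 0.67, -0.08 and 0.77), the fall each time being SERPINH1, a collagen chaperone without inhibitor activity (-2.69 ± 0.10 with SAHA, adjusted p = 2.98e-09). The 10 Kunitz, Kazal and WAP inhibitors gave 3 rises and 2 falls with both drugs, 5 and 2 with SAHA, and 4 and 2 with sonidegib (medians 0.17, 0.21 and 0.22). The 12 membrane and secreted trypsin-like proteases gave 6 rises and 4 falls, 8 and 3, and 7 and 2 in the same order (medians 0.34, 0.50 and 0.29), with the secreted protease PRSS23 up with SAHA (1.14 ± 0.082, adjusted p = 3.56e-07). Of 3 cystatins 1 rose and 1 fell with both drugs and with SAHA, and 1 fell with sonidegib (medians 0.11, -0.18 and -0.15).

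**Figure D4:**
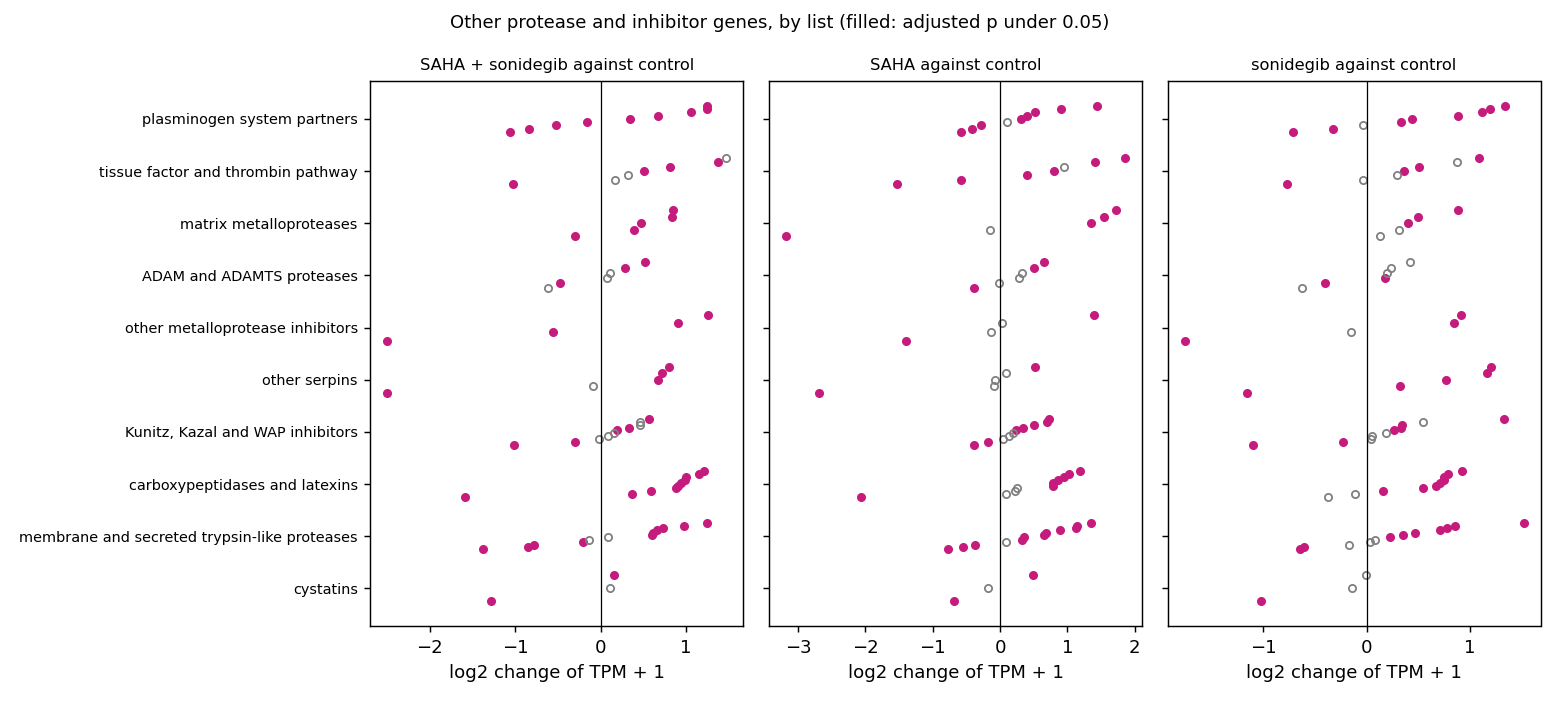
Log2 change of TPM + 1 against control (horizontal axes, own range in each panel) of the 71 tested protease and inhibitor genes in 10 lists (rows) with both drugs, SAHA and sonidegib; each point is a gene, filled where the adjusted p was under 0.05. Carboxypeptidases and latexins lie mostly right of 0 in all 3 panels, with RARRES1 as the far left point of that row with SAHA (-2.07). The 71 genes together also had medians above 0, at 0.37, 0.33 and 0.34 in the order of the panels. CPA4, as a member, is not in that row, and its change was -1.78 with both drugs, 2.81 with SAHA and -2.35 with sonidegib.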

How the data were processed

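RNA sequencing of 12 MDA-MB-468 libraries was available as a deposited table of TPM (transcript abundance scaled for length and library size) for 59324 genes, which the authors had rounded to 2 decimals. Per the submitters' processing notes Bowtie2 2.4.1 and the build GRCh38 were used. The quantifier, annotation release, strand setting and filters are not given in the sources used here. Because TPM hold no read counts, sequencing depth cannot be read from them and intervals for counting error are not given.

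Groups came from the sample titles. Genes averaging 1 TPM or more (13937) entered a limma 3.58.1 fit (R 4.3.3) of log2(TPM + 1) with 4 group means, 8 residual degrees of freedom and eBayes with an intensity trend. Tests were two-sided with Benjamini-Hochberg adjustment over all tested genes, and the code was tested on simulated data. TFPI2, CPA4 and TIMP2 had been picked for large changes and got no test. The members, the gene lists and the tests were chosen with earlier results of these data known, and the promoter motifs after values and sequences had been seen. A list gene could be named where it averaged 5 TPM or more in either group compared, had an adjusted p under 0.05 and did not overlap between groups, with at most 2 rising and 2 falling genes for each list and comparison. Some list genes are not reported here. Untested or barely expressed list genes are named outside that rule, as are further comparisons of a named gene. Positions come from GENCODE 29 (58611 identifiers matched, 713 did not), and promoters from RefSeq (GRCh38.p14).

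Alternatives covered the pseudocount, the filter, 3 scalings, the variance model, the samples fitted, the replicate block and leaving out each library.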

Additional observations from a re-analysis of the deposited data

Results flagged for a closer look

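For these genes the change with SAHA after sonidegib differed from the change with SAHA alone in the test of the difference itself, given as the first minus the second on the log2 scale. Among the members it was 0.57 for TIMP3, -0.94 for SERPINB5 and -1.23 for PLAUR. TIMP2, at -2.13, stands here because all 3 combination libraries lay below the sonidegib libraries and all 3 SAHA libraries above control. Its difference was not tested, and it adds no support because TIMP2 was picked on these libraries. Among the other genes named the difference was 3.25 for MMP7, 1.36 for SERPINH1, 0.86 for RARRES1 and 0.54 for TFPI. It was -1.38 for MMP2, -1.19 for LXN, -1.11 for MMP15, -1.05 for RECK, -1.02 for MMP14 and -0.77 for PRSS23. Naming genes by a large change with 1 drug favours a difference of the opposite sign, so these signs are a description. Of all tested genes 31.4% were called in this difference. The call of TFPI (adjusted p = 0.035) was lost in 9 other fits, at adjusted p up to 0.0815. These differences compare libraries with and without sonidegib, among which 5S ribosomal RNA also differed.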

How the results depend on the processing

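Over the alternatives, 130 of 131 counts of called members stayed within 1.5 times their value. The combination against control gave 5 calls in place of 3 without combination replicate 2. Leaving out each library in turn gave 3 to 3 calls for SAHA, 3 to 5 for sonidegib and 3 to 5 for the combination against control, 4 to 4 for the combination against SAHA, 2 to 3 against sonidegib and 3 to 4 for the difference of SAHA effects. With 1 library left out, that group rests on 2 libraries and shares the spread of the others. The signs that turned belonged to changes that had not passed the test. PLAU with SAHA was -0.014 under median-of-ratios scaling and -0.044 under quantile normalization. Without combination replicate 1 PLAU was -0.02 against control, -0.059 against SAHA, -0.781 against sonidegib and -0.82 for the difference of SAHA effects, and without replicate 2 it was 0.913 against control, 0.874 against SAHA, 0.152 against sonidegib and 0.113 for the difference of SAHA effects. TIMP1 in that difference was 0.011 under median-of-ratios scaling. TFPI with sonidegib was 0.038 under quantile normalization, 0.003 without control replicate 1, and 0.021 and -0.099 without sonidegib replicates 1 and 3. The cause was not tested. A pseudocount of 0.1 made the low levels of CPA4 and TFPI2 count for more, with -5.06 and -4.32 for the combination against SAHA. Median-of-ratios and quantile scaling moved the median of all genes in that comparison by 0.106 and 0.115. Of the counts within gene lists 102 moved by more than 1.5 times and 1208 did not. The fit of the compared groups alone was not possible for the difference of SAHA effects, which needs all 4. Unknown depth leaves the precision of PLAT, and of CPA4 and TFPI2 with sonidegib, unstated.

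The replicate numbers did not pair the libraries: deviations from group means correlated at -0.059 to 0.111 between same-numbered libraries, over 0.1 in 1 of 18 pairs, and libraries correlated best with their own number in 13 of 36 cases. With the replicate block the calls over all genes moved to 8441 from 8176 for SAHA, 8076 from 7712 for sonidegib and 9144 from 8883 for the combination against control. They moved to 7464 from 7100 for the combination against SAHA, 5817 from 5370 against sonidegib and 4798 from 4381 for the difference of SAHA effects.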
